A study of Mus musculus with 6 samples.

Results

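The decreased transcripts at the top of the study's own list include 7 with names of the form Gm and a number, and their levels are described here on 6 microarrays of mouse heart tissue. They are Gm11839, Gm15502, Gm6706, Gm11400, Gm8459, Gm5379 and Gm15466, each measured by 1 of the 59709 probes of the array. They were chosen by measured values, since the study had ranked transcripts by the difference between the area at risk (AAR) and the remote myocardium (RM) of mice subjected to ischemic preconditioning (IPC). The difference between the IPC AAR and the IPC RM is therefore given as a description, with no test. The 2 arrays of sham-operated mice had no part in the choice, and where they place each transcript is the main question.

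Gm names are placeholders for mouse genes that were predicted from the genome sequence and have not been given a functional name. Many such loci are pseudogenes, which are copies of a gene that have lost the capacity to code for its protein. A processed pseudogene arises when a messenger RNA is copied back into DNA and inserted elsewhere in the genome. Transcripts from pseudogenes are commonly listed with the long noncoding RNAs (lncRNAs), and a probe for one can also bind RNA of the parent gene when their sequences are alike.

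IPC consists of brief occlusions of the left coronary artery separated by reperfusion, and it is known for making heart muscle more tolerant of a later, longer occlusion. By the labels the artery was closed for 4 min and opened for 4 min in each of 4 cycles, and tissue was taken after a final 30 min of reperfusion. The AAR was sampled next to the ligature and the RM from the right ventricle, so the AAR and RM arrays differ in treatment exposure and in heart region. They also differ, against the labels, in the level of Xist, which is given below. IPC mice 004 and 008 are each labelled as the source of an AAR and an RM array, and sham mice 012 and 013 as the source of an AAR array. This makes 2 arrays in each of 3 groups. All 4 mice are labelled as strain C56BL7, female and 12 months old, and the methods describe injected anesthesia for the operation. RM tissue of sham mice was not analysed here.

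A number recorded with each array, read here as its slide, was 1 for all 4 IPC arrays and 2 for both sham arrays. Whether it names a slide was not established, and what it marks cannot be told apart from the sham treatment. Between 36699 and 48359 of 59994 spots were well above background, with the lowest number on the array of sham 012 and 0 saturated spots on any array. The sham arrays also differed more from each other than the arrays of the other groups did. Among the 34553 probes that were well above background throughout, the median absolute log2 difference was 0.31 between the sham arrays, and 0.11 between the arrays of either IPC group. The RM arrays went against their labels in the level of Xist, a noncoding RNA that coats the silenced X chromosome and is abundant in female tissue. The probe of its transcript ENSMUST00000127786 read 7.40 and 7.71 (log2) on the RM arrays labelled 004 and 008, and 13.31 and 13.28 on the AAR arrays with the same numbers. The sham AAR arrays read 12.95 and 12.80 with this probe. Comparisons with the RM rest on both RM arrays, and no comparison with the RM can be made without them. The part of this disagreement with the labels in the differences described here was not tested. The 6 housekeeping genes with a named probe differed between the IPC AAR and the IPC RM by -0.58 (Tbp) to 0.51 (Actb) on the log2 scale. Of 22 marker genes of heart and other tissues, 0 have a named probe in the files, and the labelled tissue could therefore not be checked by markers.

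The files name the 7 probes by a design number alone. Each was found as the probe whose geometric mean intensities in the IPC mice, in AAR and RM, lay nearest to the group means the study printed for that transcript. All 7 lay within 0.104% of both means, and the next nearest probe was at least 3.07% away. A RefSeq gene table for a later genome build than that of the array lists 5 of the 7, all of them as pseudogenes. Gm11400 (transcript ENSMUST00000120853, gene ENSMUSG00000081208) overlaps Sfi1, a gene for a centrosome protein. Gm15466 (ENSMUST00000122299, ENSMUSG00000081657) overlaps Mrps28, a gene for a protein of the small subunit of the mitochondrial ribosome. The other three lie between genes. Gm11839 (ENSMUST00000120647, ENSMUSG00000083246) has Rbm12b2, which codes for an RNA-binding motif protein, and the predicted gene Gm11841 as neighbors. Gm8459 (ENSMUST00000162504, ENSMUSG00000089931) overlaps no other gene of the table. Gm5379 (ENSMUST00000120973, ENSMUSG00000080952) lies between the predicted gene Gm14864 and Fthl17f, a gene of the ferritin heavy chain family. Gm15502 (ENSMUST00000121449, ENSMUSG00000083813) and Gm6706 (ENSMUST00000145087, ENSMUSG00000087123) have no row in that table. The study places Gm15502 in sense overlap with Cyp3a13, a cytochrome P450 gene. The files name no probe for Sfi1, Mrps28 or Cyp3a13, so 0 of these 3 genes could be set beside the Gm transcripts that overlap them.

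All levels below are log2 intensities after quantile normalization of the 6 arrays, a step that makes the distribution of values identical between arrays. The levels of different probes cannot be compared with each other, because each probe binds with its own strength. In tissue biopsies, fewer cells of a type and less RNA per cell cannot be told apart.

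On the IPC arrays the 7 transcripts had the difference they were selected on. The log2 difference of the IPC AAR from the IPC RM ranged from -6.53 for Gm11839 to -5.77 for Gm15466, with a median of -6.24, against a median of 0.20 over all 46232 probes tested in this comparison. On the linear scale the RM was between 54.5-fold and 92.5-fold higher than the AAR. The folds of Gm11839, Gm6706 and Gm11400 rest on IPC AAR signals below the 95th percentile of negative-control spots. For Gm5379 this held on the array of IPC AAR 008 alone. With the normexp background correction the log2 differences ranged from -6.19 for Gm15502 to -4.60 for Gm11839, so that Gm11839 went from the largest difference of the 7 to the smallest. Each of the 7 was lower on both AAR arrays than on both RM arrays. Over all tested probes 13.3% were called lower in this direction, which means an adjusted p below 0.05 from limma and a fold change above 2, and all 7 transcripts were among them by the way they were chosen. They were not the most decreased probes of the array. Among probes well above background on all 4 IPC arrays and called lower, 15 had a larger decrease than Gm11839 and 55 a larger decrease than Gm15466. The probe just after Gm15466 in this order had a difference of -5.74.

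**Figure D1:**
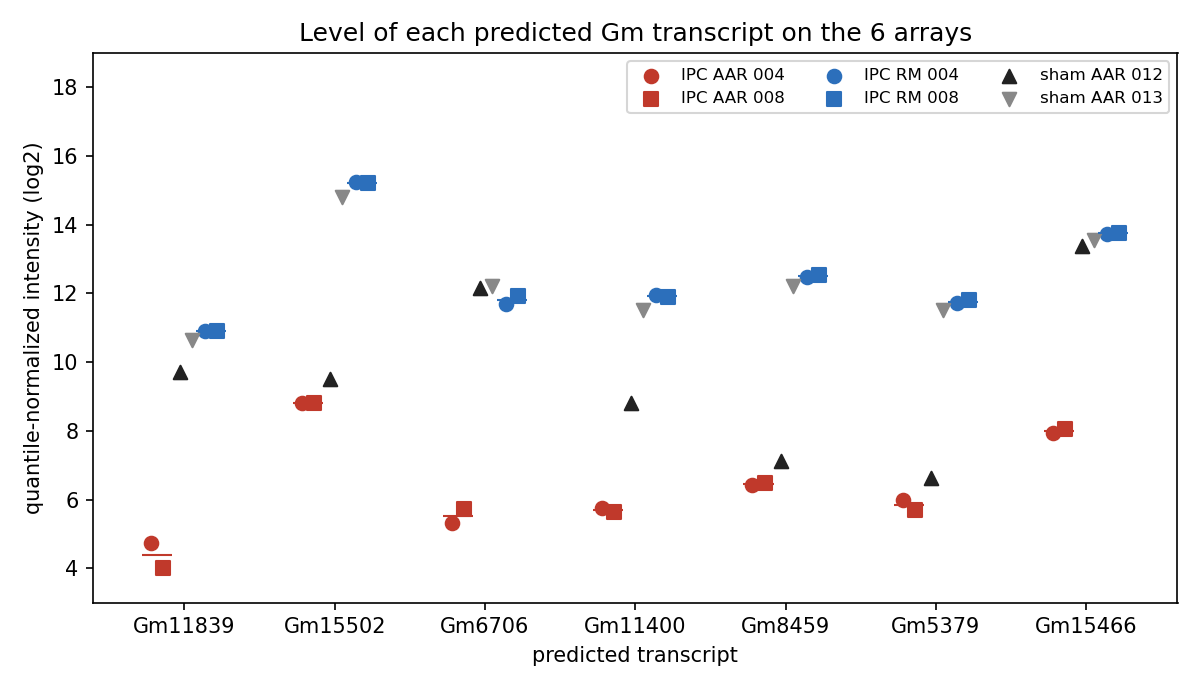
Log2 quantile-normalized intensity (vertical axis) of each of the 7 predicted Gm transcripts on each of the 6 arrays, with short lines at the means of the IPC AAR and the IPC RM. The array of sham 013 lies close to the IPC RM for all 7, whereas that of sham 012 lies near the IPC AAR for Gm15502, Gm8459 and Gm5379.

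On the sham arrays the 7 transcripts fell into different patterns. Both sham arrays read above both IPC AAR arrays for 7 of 7, and the same order of arrays was found for 10038 of the 40161 probes tested. The share of probes called lower in IPC than in sham AAR was 5.78%. Sham 013 lay within 0.43 of the IPC RM mean for each of the 7, on the log2 scale. Sham 012 was below sham 013 for each of the 7, by 0.052 to 5.30 on the log2 scale. To put these levels on a common scale, each sham array was placed between the mean IPC AAR, set to 0%, and the mean IPC RM, set to 100%, on the log2 scale. Sham 013 was placed at 93.3% to 106% and sham 012 at 10.9% to 105%. Sham 012 was above 75% for Gm11839, Gm6706 and Gm15466, below 25% for Gm15502, Gm8459 and Gm5379, and at 49.8% for Gm11400. The limits of 25% and 75% were set after these values were seen.

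Gm6706 was high on both sham arrays. It read 5.32 and 5.72 in the IPC AAR of mice 004 and 008, 11.69 and 11.94 in IPC RM, and 12.16 and 12.21 on the arrays of sham 012 and 013. It was the only one of the 7 for which both sham arrays read above both IPC RM arrays. The IPC AAR was lower than the sham AAR by a log2 difference of -6.67 (SE 0.20, adjusted p = 0.0123 from limma). With normexp this difference was -5.29, and the IPC AAR signals of Gm6706 were below the 95th percentile of negative-control spots.

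Gm15466, the pseudogene that overlaps Mrps28, was also high on both sham arrays, though below the IPC RM. Its levels were 7.93 and 8.05 in the IPC AAR, 13.74 and 13.77 in IPC RM, and 13.39 and 13.55 on the sham arrays. The sham arrays were between the IPC groups and close to the RM, with sham 012 at 93.6% and sham 013 at 96.4%. The IPC AAR differed from the sham AAR by -5.48 on the log2 scale (SE 0.16, adjusted p = 0.0123 from limma). By the methods' t-test the adjusted p was 0.0916.

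Gm11839, the pseudogene next to Rbm12b2, was the dimmest of these transcripts in relation to background in the IPC AAR. It read 4.74 and 4.00 there, 10.92 and 10.90 in IPC RM, and 9.71 and 10.64 on the arrays of sham 012 and 013. The IPC AAR arrays differed from each other more than for any other of the 7 (SD 0.52, n = 2), and this spread was small against the difference from either sham array. The log2 difference of the IPC AAR from the sham AAR was -5.80 (SE 0.44, adjusted p = 0.0187 from limma, 0.131 by the methods' t-test). Sham 012 was placed at 81.7%.

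For Gm15502, the transcript that overlaps Cyp3a13, the sham arrays were far apart. Levels of 8.80 on both IPC AAR arrays and of 15.25 and 15.20 on the IPC RM arrays stood beside 9.50 for sham 012 and 14.80 for sham 013. Sham 013 was 39.4-fold higher than sham 012, whereas sham 012 was 1.62-fold above the IPC AAR mean. The log2 difference of the IPC AAR from the sham AAR was -3.35 (SE 1.89, adjusted p = 0.265 from limma), which did not pass the test.

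Gm8459 and Gm5379, the latter next to Fthl17f, were split by the sham arrays in the same way. Gm8459 read 6.43 and 6.49 in the IPC AAR, 12.47 and 12.54 in IPC RM, 7.12 for sham 012 and 12.22 for sham 013. Gm5379 read 5.99 and 5.71 in the IPC AAR, 11.72 and 11.80 in IPC RM, 6.63 for sham 012 and 11.50 for sham 013. Sham 012 lay near the IPC AAR for both, 1.59-fold above its mean for Gm8459 and 1.72-fold above it for Gm5379. Sham 013 exceeded sham 012 by 34.2-fold for Gm8459 and by 29.2-fold for Gm5379. Their log2 differences of the IPC AAR from the sham AAR were -3.21 (SE 1.82, adjusted p = 0.265 from limma) and -3.22 (SE 1.74, adjusted p = 0.249), and neither passed the test.

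Gm11400, the pseudogene that overlaps Sfi1, held a middle place. It read 5.76 and 5.63 in the IPC AAR, 11.95 and 11.90 in IPC RM, 8.80 for sham 012 and 11.52 for sham 013. Sham 012 was above both IPC AAR arrays, whose signals were below the 95th percentile of negative-control spots, and 6.59-fold below sham 013. The IPC AAR was below the sham AAR by a log2 difference of -4.47, with SE 0.98 and an adjusted p of 0.0701 from limma, so that it was not called.

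**Figure D2:**
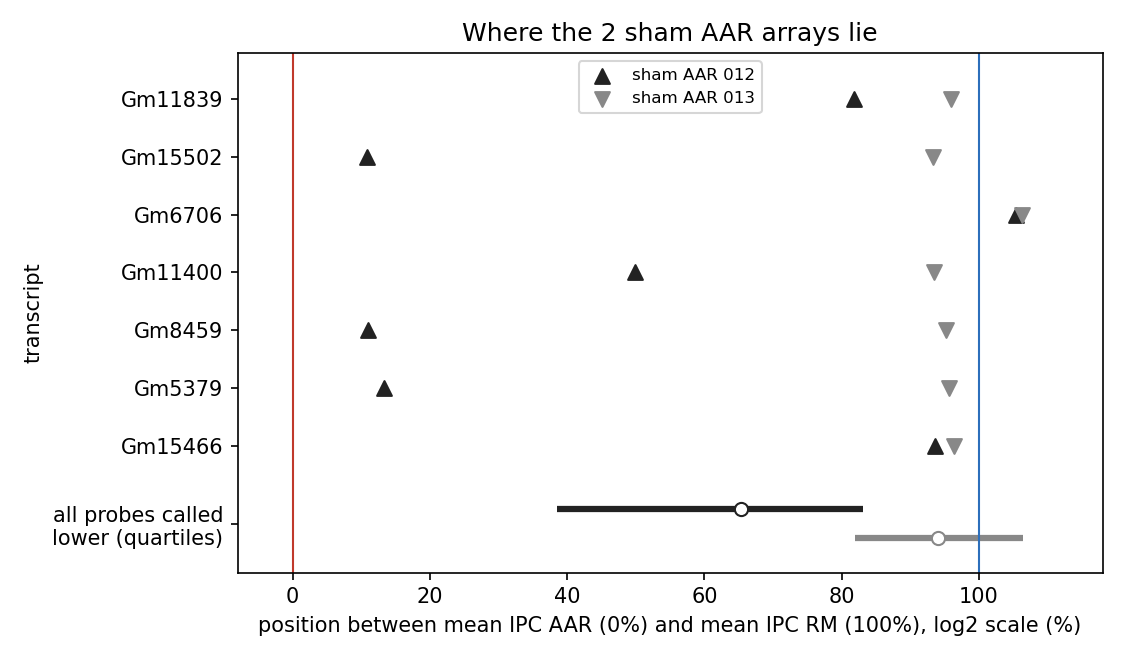
Place of each sham AAR array for each of the 7 transcripts, in percent of the log2 distance from the mean IPC AAR (red line, 0%) to the mean IPC RM (blue line, 100%), with the median (circle) and quartiles (bar) over all 3763 probes called lower in the IPC AAR at the bottom. Sham 013 stands at 93.3% or more in every row of the 7, and sham 012 ranges from 10.9% to 105%.

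Counted together, 3 of 7 transcripts were called lower by limma in IPC than in sham AAR (Gm11839, Gm6706 and Gm15466), against 5.78% of the 40161 probes tested. Because the IPC AAR arrays on one side of this comparison helped to select the transcripts, the folds and p-values describe them and are no independent evidence of a decrease. The median log2 difference over the 7 was -4.47, against 0.23 over all probes tested. This median was -4.54 without the array of IPC AAR 004 and -4.40 without that of IPC AAR 008. It was -5.83 without that of sham 012 and -3.11 without that of sham 013. The count of calls depended on single arrays, both for the 7 and over all probes, as described below.

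Between the IPC RM and the sham AAR, 0 of the 7 transcripts were called, and the share of probes called higher in the IPC RM was 0%. By limma 7554 of 46061 probes had an unadjusted p below 0.05 in this comparison, the methods' t-test called 0 higher in the RM, an intensity trend in the variance 4 and a fit of all 6 arrays 113. The log2 difference of the IPC RM from the sham AAR ranged from -0.37 for Gm6706 to 3.08 for Gm15502, with a median of 1.77 against 0.026 over all probes tested. The IPC RM arrays also helped to select the transcripts, so these values are a description as well. Both sham arrays were below both IPC RM arrays for 6 of 7, all but Gm6706, and for 12879 of the 46061 probes tested. These values moved with single sham arrays. Without the array of sham 013, 5 transcripts were called higher in the IPC RM, namely Gm11839, Gm15502, Gm11400, Gm8459 and Gm5379, as were 10.3% of all probes tested. Without the array of sham 012 the median over the 7 was 0.27, 0 of the 7 were called by limma (2 had an unadjusted p below 0.05) and 2.96% of all probes were called higher. For Gm15466 the difference was 0.29 (adjusted p = 0.416 from limma), and it turned to -0.013 with scaling to the 75th percentile of each array.

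The distance between the sham arrays was large for some of the transcripts and small for others. Of the 7 transcripts, 4 were more than 4-fold lower on the array of sham 012 than on that of sham 013 (Gm15502, Gm11400, Gm8459 and Gm5379), compared with 0.920% of the 34553 probes well above background on all 6 arrays. The SD of the sham arrays was 3.75 for Gm15502 and 0.037 for Gm6706 (n = 2). The SD in the IPC RM was between 0.015 and 0.17, and that in the IPC AAR between 0.0047 and 0.52.

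The places of the sham arrays were also set beside those of the other decreased probes. Over the 3763 probes called lower in the AAR than in the RM of the IPC mice and well above background on all 6 arrays, the median place was 65.3% for sham 012 and 94.0% for sham 013. Over the 7 transcripts the medians were 49.8% and 95.7%. Sham 012 below 25% together with sham 013 above 75%, the pattern of Gm15502, Gm8459 and Gm5379, occurred in 8.98% of these probes, and both sham arrays above 75%, as for Gm11839, Gm6706 and Gm15466, in 34.7%. Among the 56 probes with a decrease at least as large as that of Gm15466, 7 had the first pattern and 20 the second, each count with 3 of the Gm transcripts in it. The other 3 decreased transcripts of the study's list, AK050743, Neat1 and Son, were placed by sham 012 at 71.5%, 66.2% and 71.3%, and by sham 013 at 93.6%, 97.8% and 97.8%. Neat1 is the scaffold RNA of nuclear paraspeckles, and Son codes for a protein of nuclear speckles. None of these 3 had sham 012 below 25% or above 75%. These limits were set after the values were seen, and AK050743 and Son were close to the upper limit.

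The likeness of the transcripts to each other followed the sham arrays. Likeness was measured as the root mean square difference between profiles over the 6 arrays, each centred on its mean, in log2 units. The closest pair was Gm8459 and Gm5379 at 0.14, followed by Gm15502 and Gm8459 at 0.17 and Gm15502 and Gm5379 at 0.27. Gm11839 and Gm15466 were 0.46 apart, and Gm6706 and Gm15466 were 0.50 apart. Gm15502 and Gm6706 were the farthest apart at 2.20. The IPC values, which chose the transcripts, make every profile alike on 4 of the 6 arrays, so these distances are a description of the sham values in the main.

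Set against the mean profile of the 7, Gm11400 was nearest at 0.086, with 0 other probes nearer, and Gm6706 was farthest at 1.23. The study's other 3 decreased transcripts were nearer than the remaining 6, with Neat1 at 0.34, Son at 0.44 and AK050743 at 0.49. They were ranked on the same IPC arrays, which makes their profiles alike there. On the array of sham 012 the mean profile averages transcripts placed high and low. Transcripts with a middle place on it therefore lie near the mean by construction. Of the 34553 probes measured above background on all 6 arrays, 406 were as near to the mean profile as Gm6706. Apart from these, the 5 nearest of those with a transcript or region name in the files were uc.418- (0.53), uc.419- (0.85), ENSMUST00000159764 (0.86), the lincRNA exon probe MM9LINCRNAEXON11021+_P1 (0.93) and uc.203+ (0.93). The names with uc belong to probes of ultraconserved genome regions, and the sign gives the strand. The probe of uc.418- read 6.56 and 6.82 in the IPC AAR, 11.70 and 11.68 in IPC RM, 9.69 for sham 012 and 11.71 for sham 013.

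The transcripts were dim in the IPC AAR. The scanner software marked all 7 as well above background on all 6 arrays. Before normalization, however, the processed spot signal of the 7 in the IPC AAR ranged from 13.2 to 367, and 7 of the 14 values lay below the 95th percentile of the 1200 negative-control spots of the same array. Gm11839, Gm6706 and Gm11400 lay below it on both IPC AAR arrays, and Gm5379 on that of IPC AAR 008 (42.1 against 48.5). In the IPC RM the signals ranged from 2547 to 42032, and 0 of 14 values there and 0 of 14 on the sham arrays lay below that percentile.

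Gm11839 gave the lowest signals, 23.3 and 13.2 in the IPC AAR of mice 004 and 008, which exceeded 83.8% and 77.1% of the negative-control spots. The scanner software's own error estimate was 16.4% and 20.9% of these signals. For Gm15502, at 367 and 362, the signals exceeded 100% of the negative-control spots on both arrays. Gm8459 and Gm5379 were also dim on the array of sham 012, with signals of 107 and 75.7, against 3920 and 2459 on that of sham 013. The error estimate was at most 11.4% on the RM and sham arrays.

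**Figure D3:**
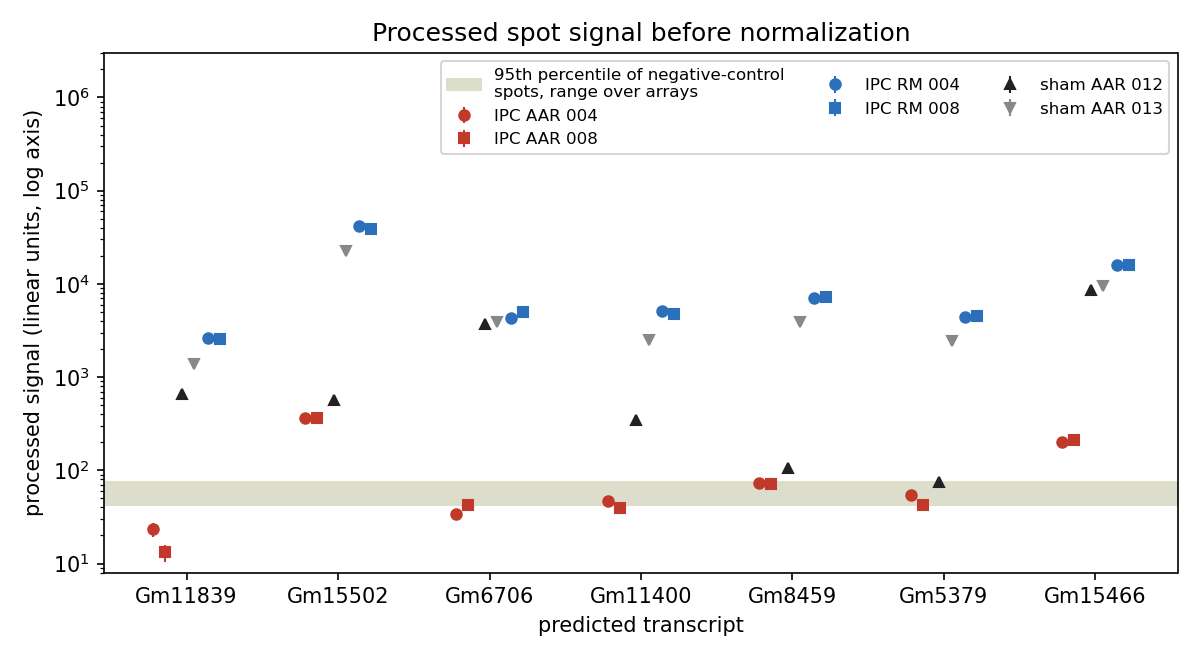
Processed spot signal of the 7 transcripts before normalization (linear units, log axis), with the scanner software's error estimate as bars, on each of the 6 arrays. The band spans the 95th percentile of the negative-control spots over the arrays, from 42.4 to 74.2, and 3 of the 7 transcripts lie below that of their own array on both IPC AAR arrays.

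When the spot background was corrected with normexp, which adds an offset of 50 before the log, the difference of the IPC AAR from the IPC RM was -4.60 for Gm11839 in place of -6.53, and the median over the 7 was -5.15.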

How the data were processed

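Cy3-labeled RNA of each biopsy was hybridized to its own Arraystar Mouse LncRNA Array v 2.0. The authors deposited Agilent Feature Extraction (11.0.1.1) output, in which the intensity of a spot is its processed signal after background subtraction, not normalized between arrays. A series table has 6 columns of values whose names match no sample label, and these were not used. Groups and mouse numbers came from the labels.

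Control and negative-control spots were removed, as were 17 to 29 outlier spots per array. Log2 signals were averaged per probe and then quantile normalized (6 arrays together, R 4.3.3, limma 3.58.1). Testing of a probe required it to be well above background (at least 0.5 of its spots) on both arrays of a group compared, using lmFit and eBayes on 4 arrays with Benjamini-Hochberg adjustment. Calls needed an adjusted p below 0.05 and a fold above 2. With 2 arrays per group, an exact two-sided permutation test cannot give a p below 0.333, and the number of arrays limits the precision. The procedures were tested on simulated data.

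The transcripts, the lists and the tests were chosen with earlier results of these data known. The transcripts named are every decreased Gm row of the study's list, its 3 other decreased rows, 3 overlapped genes and 22 tissue markers (0 with a named probe), 6 housekeeping genes and the 5 most alike named probes. By the labels an AAR and an RM biopsy that share a number are of 1 mouse. The level of Xist differed between such arrays, as given above. Whether the numbers pair biopsies of the same mouse was therefore not established. As a check, the difference between mice in the AAR and that in the RM had a correlation of -0.13 over 38821 probes, which are not independent. The alternatives were other scalings, normexp on median spot and background signals, other filters, the methods' t-test, all 6 arrays in 1 fit, an intensity trend, outlier spots kept, each array left out and a replicate block. The labels list female mice and 4 min occlusions, while the methods name both sexes and a longer occlusion.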

Additional observations from a re-analysis of the deposited data

How the results depend on the processing

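The direction of the difference of the IPC AAR from the IPC RM and from the sham AAR held for all 7 transcripts under every alternative run. The same IPC arrays had selected the transcripts for a large difference. The kept direction is therefore no independent evidence of a decrease. The median difference of the IPC AAR from the IPC RM, -6.24, became -5.95 with 75th percentile scaling and -5.15 with normexp, and stayed between -6.21 and -6.10 with 1 array left out. These scalings moved the median over all tested probes from 0.20 to 0.33 and to 0.096. With a replicate block for the labelled mouse number, the median was also -6.24. In that fit 5883 probes were called lower in the IPC AAR, against 6135 without the block. The block could be run in this comparison alone, since sham and IPC mice share no number. The number of probes called lower in it was 3574 with normexp, 3940 when a probe had to be well above background on all 4 arrays, 2913 without IPC RM 004 and 3514 without IPC RM 008.

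The 3 transcripts called lower in IPC than in sham AAR became 0 with no filter on dim probes and 0 by the methods' t-test, and ranged from 0 to 7 with 1 array left out, where a lone array is taken to vary as the opposite group does. Over all probes, the 2321 lower calls became 0 with no filter and 1 by the methods' t-test, and were 5301 without sham 012, 1763 without sham 013 and 0 without either IPC AAR array. In the limma fits behind these 0 counts, 7099 probes (no filter), 3207 (without IPC AAR 004) and 3594 (without IPC AAR 008) were lower at an unadjusted p below 0.05, and 4 of the 7 transcripts had such a p in each. Gm11839, Gm6706 and Gm15466 each lost the call in 4 of 13 alternatives, with adjusted p-values from limma or the t-test of up to 0.131. Gm11400 was called in 5 of 13 (adjusted p from 0.0246 to 0.256). Gm15502, Gm8459 and Gm5379 were called in 1 of 13, without sham 012 (adjusted p = 0.0284 from limma), and their differences ranged down in size to -0.70, -0.67 and -0.78 without sham 013.

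Against the sham AAR, the median difference of the IPC RM, 1.77, ranged from 0.27 to 3.13 and the number of transcripts called from 0 to 5 with 1 array left out, while over all probes 1399 were called higher in IPC RM without sham 012 and 4773 without sham 013. Gm15466 changed sign in this comparison under 75th percentile scaling (-0.013, adjusted p = 0.976 from limma). The median place of sham 012, 49.8%, was 51.4% with 75th percentile scaling and 39.4% with normexp, and that of sham 013, 95.7%, was 97.4% and 93.3%. Under 75th percentile scaling 6 of 7 transcripts kept their side of the midpoint on the array of sham 012, the exception being Gm11400, and 7 of 7 did under normexp. The cause of these changes was not tested. Low signal over background limits the IPC AAR values of Gm11839, Gm6706 and Gm11400 most.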

Other observations

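The probes that precede and follow each transcript in the design numbers of the array were looked up. Of the 65 distinct probes within 5 design numbers on either side of any of the 7 transcripts, 55 were tested between the IPC AAR and the IPC RM, and 7 were called lower and 1 higher by limma, beside 13.3% called lower over the whole array. The probes around Gm11839 included 3 of the 7 lower calls. Gm11400 and Gm5379 are 4 design numbers apart, and each is the called neighbor of the other, so 2 of the 7 are these transcripts themselves. The neighbors of Gm8459 and Gm15466 had 0 calls, with differences from -0.28 to 0.94 and from -0.49 to 0.82.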
